A study of Homo sapiens with 6 samples.

Results

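The 9 genes described here encode the receptors, adaptors and kinases of insulin and insulin-like growth factor (IGF) signalling, and they were taken by symbol from the 57861 genes usable in all libraries. They are the receptors IGF1R and INSR, the adaptors IRS1 and IRS2, the PI3K subunits PIK3CA and PIK3R1, the kinases AKT1 and AKT2, and RICTOR. Each symbol matched exactly 1 gene identifier, and none of the 9 had a failed estimate. The libraries came from MOLP-8, an established human multiple myeloma line, stably infected with the lentiCRISPRv2 vector and kept under puromycin. The 3 control libraries carried a scrambled guide and the 3 LIN28B KO libraries a guide against LIN28B. The condition label calls these cells KO and the titles KD, and the former is used here. Both groups share the vector and the selection. The labels do not say whether a group was 1 infection or clone, or whether its libraries were separate cultures, so p-values measure the spread between libraries, which may be technical.

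In this pathway IGF1R and INSR are receptor tyrosine kinases that phosphorylate the docking proteins IRS1 and IRS2. These recruit PI3K, whose lipid product brings AKT to the membrane, where PDPK1 and the mTORC2 complex, built around RICTOR, phosphorylate it. IGF1 is a known growth and survival factor for myeloma cells. LIN28B blocks maturation of let-7 microRNAs, and several transcripts of this pathway have been reported as let-7 targets in other systems, so that the design asks whether their levels differ when LIN28B is targeted.

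Sequences of let-7 and of its matches in these transcripts are shown first. The 9 mature let-7 family members in RefSeq (GRCh38.p14), from let-7a to let-7i and miR-98, all carried the seed GAGGUAG at bases 2 to 8. Printed here are 3 of them, 5′ to 3′, with the seed in capitals, to show that they share it while their 3′ parts differ. The microRNAs themselves were not measured in these libraries.
let-7a-5p: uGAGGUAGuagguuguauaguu
let-7g-5p: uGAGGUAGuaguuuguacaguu
miR-98-5p: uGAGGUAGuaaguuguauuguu

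Matches to that seed were looked for on the transcript strand of the longest annotated 3′ UTR of each gene (GENCODE 29). The 8-base match CTACCTCA contains both 7-base matches, CTACCTC and TACCTCA, and each position was counted once under its longest match. A match was present in 7 of the 9 genes and an 8-base match in 6, IGF1R, INSR, IRS2, PIK3CA, AKT2 and RICTOR. The 8-base matches are shown with the bases before them and the match in capitals. Whether let-7 acts at any of these places was not tested.
IGF1R: tttttttcccccaaacatttatCTACCTCA
INSR: gattttcttttttcagcacagtCTACCTCA
IRS2: tacactcaaaacgaccacagtcCTACCTCA
PIK3CA: tgataaaattggattggtaactCTACCTCA
AKT2: cgtagtgtgggcacaggcctggCTACCTCA
RICTOR: ttttagacattcattttaaacaCTACCTCA

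On GRCh38 the 30 bases shown lie in the 3′ UTR at chr15:98960039-98960068 (plus strand) for IGF1R and at chr19:7114656-7114685 (minus strand) for INSR. Those of IRS2 lie at chr13:109755844-109755873 (minus strand) and those of PIK3CA at chr3:179238454-179238483 (plus strand). For AKT2 the place is chr19:40231249-40231278 (minus strand), and for RICTOR chr5:38940327-38940356 (minus strand). IGF1R had 2 further matches, a 7-base match at base 99 after the stop codon and another at base 6661 of its 7088-base UTR. IRS1 had a single 7-base match at base 1866. No match was found in the 4220-base UTR of PIK3R1 or the 992-base UTR of AKT1. Among 11311 protein-coding genes tested, 18.1% had any match and 4.37% an 8-base match. Long UTRs hold more: within 1.2-fold of the same length, any match was held by 31.6% (AKT2) to 53.6% (IGF1R) for the 7 genes with one. There, 8-base matches were held by 13.4% for IGF1R, 10.3% for INSR and RICTOR, 10.8% for PIK3CA, 7.28% for AKT2 and 7.25% for IRS2. The 9 genes were listed because the pathway is reported to be under LIN28/let-7 control, so their share of matches is a description of the list. In AKT2 the match was in 2 of 6 protein-coding transcripts, in INSR in 1 of 3 and in PIK3CA in 1 of 2, whereas all 4 transcripts of IGF1R and both of RICTOR held one.

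**Figure D1:**
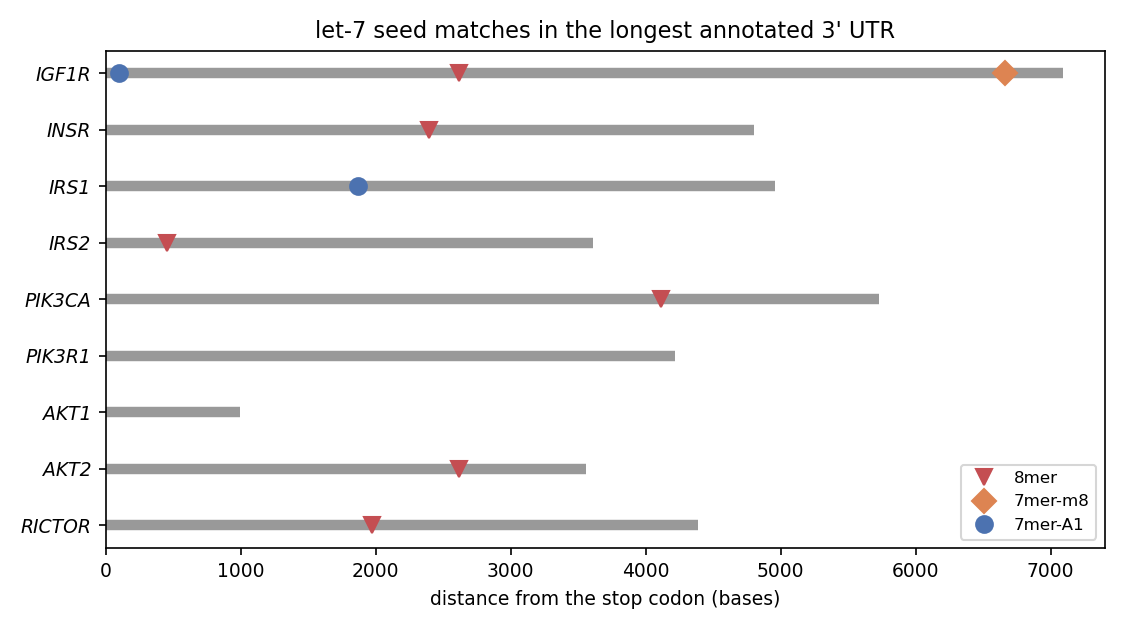
Grey bars are the longest annotated 3′ UTR of each gene, to scale in bases from the stop codon, and symbols mark let-7 seed matches by type (8mer is CTACCTCA, 7mer-m8 is CTACCTC, 7mer-A1 is TACCTCA). IGF1R holds 3 matches, PIK3R1 and AKT1 hold none, and each of the other 6 holds 1.

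The values are FPKM, which scales fragments to transcript length and to the size of the library. Relative depth, estimated from the deposited bounds, was 0.718 to 1 in the controls and 0.533 to 0.717 in the LIN28B KO libraries, set against control library 1. LIN28B, the targeted gene, was at 23.3, 24.3 and 25.5 FPKM across the controls, against 8.41, 8.17 and 5.84 FPKM across LIN28B KO libraries (log2 fold change -1.66, limma adjusted p = 0.0207). All 8 plasma cell markers examined, among them SDC1, IRF4 and XBP1, had a mean of at least 1 FPKM. They summed to 2966 to 3032 FPKM in control and 1989 to 2944 FPKM in LIN28B KO, mostly from XBP1 and MZB1. XBP1, MZB1, SDC1 and CD38 were lower in every LIN28B KO library than in every control, as were 20.1% of all tested genes. SLAMF7 was higher in every LIN28B KO library, as were 7.61% of all tested genes. It averaged 47.8 FPKM in control and 83.0 FPKM in LIN28B KO. The B cell gene MS4A1 was listed at 0 in every library. Of the other lists, T cell markers summed to 161 to 164 FPKM in the controls and 99.2 to 149 FPKM in LIN28B KO, nearly all from CD4. Epithelial markers summed to 120 to 131 FPKM and 75.6 to 102 FPKM, mostly from KRT8. Myeloid markers summed to at most 1.38 FPKM in any library. LIN28B KO library 3 stood apart: MALAT1 was at 892 FPKM there against 259 to 331 FPKM in the other 5, ACTB at 1290 FPKM against 1888 to 2416 FPKM, and 17676 genes reached 1 FPKM against 15356 to 15932. B cell markers summed to 4.81 FPKM in it, against 0.127 to 0.893 FPKM in the controls, and stromal markers to 13.4 against 2.97 to 5.56 FPKM. The part of these differences in the results below was not tested, and values are therefore also given from a 5-library fit of protein-coding genes without that library.

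Between groups, RICTOR averaged 170% of its control mean, AKT1 78.2% and PIK3R1 72.04%, and none of these differences passed the test. Of the 8 genes with enough signal to be tested, none passed limma's test across all genes with 6 libraries (Benjamini-Hochberg adjusted p under 0.05), against 0.0949% of 15803 genes tested. At an unadjusted p under 0.05, 1 of the 8 passed, RICTOR, against 13.7% of all genes. In the 5-library fit 0 of 8 passed, against 4.09% of 11308 genes, and none had an unadjusted p under 0.05, against 22.8%. The same 5 libraries without the limit to protein-coding genes gave 23 genes higher and 41 lower of 15336. The 4.09% therefore rests on that limit as well as on leaving out library 3. Cyclic loess scaling, which removes trends with level, left 0 of 8 past either threshold in the 5-library fit. Of its genes, 2.25% passed at the adjusted threshold and 20.9% at the unadjusted one. On all 6 libraries it again left 0 of 8 past the adjusted threshold, against 0.702% of all genes, and 1 of 8, AKT2, under an unadjusted p of 0.05, against 18.1%. The median log2 fold change of the 8 was -0.04 with 6 libraries, beside -0.13 for all genes, and -0.02 in the 5-library fit, beside -0.04. Fold changes are LIN28B KO over control after adding 0.5 FPKM to each value and taking log2, so changes of genes with little signal come out too small. In RNA from whole cultures, fewer cells with a transcript and less of it per cell cannot be told apart.

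**Figure D2:**
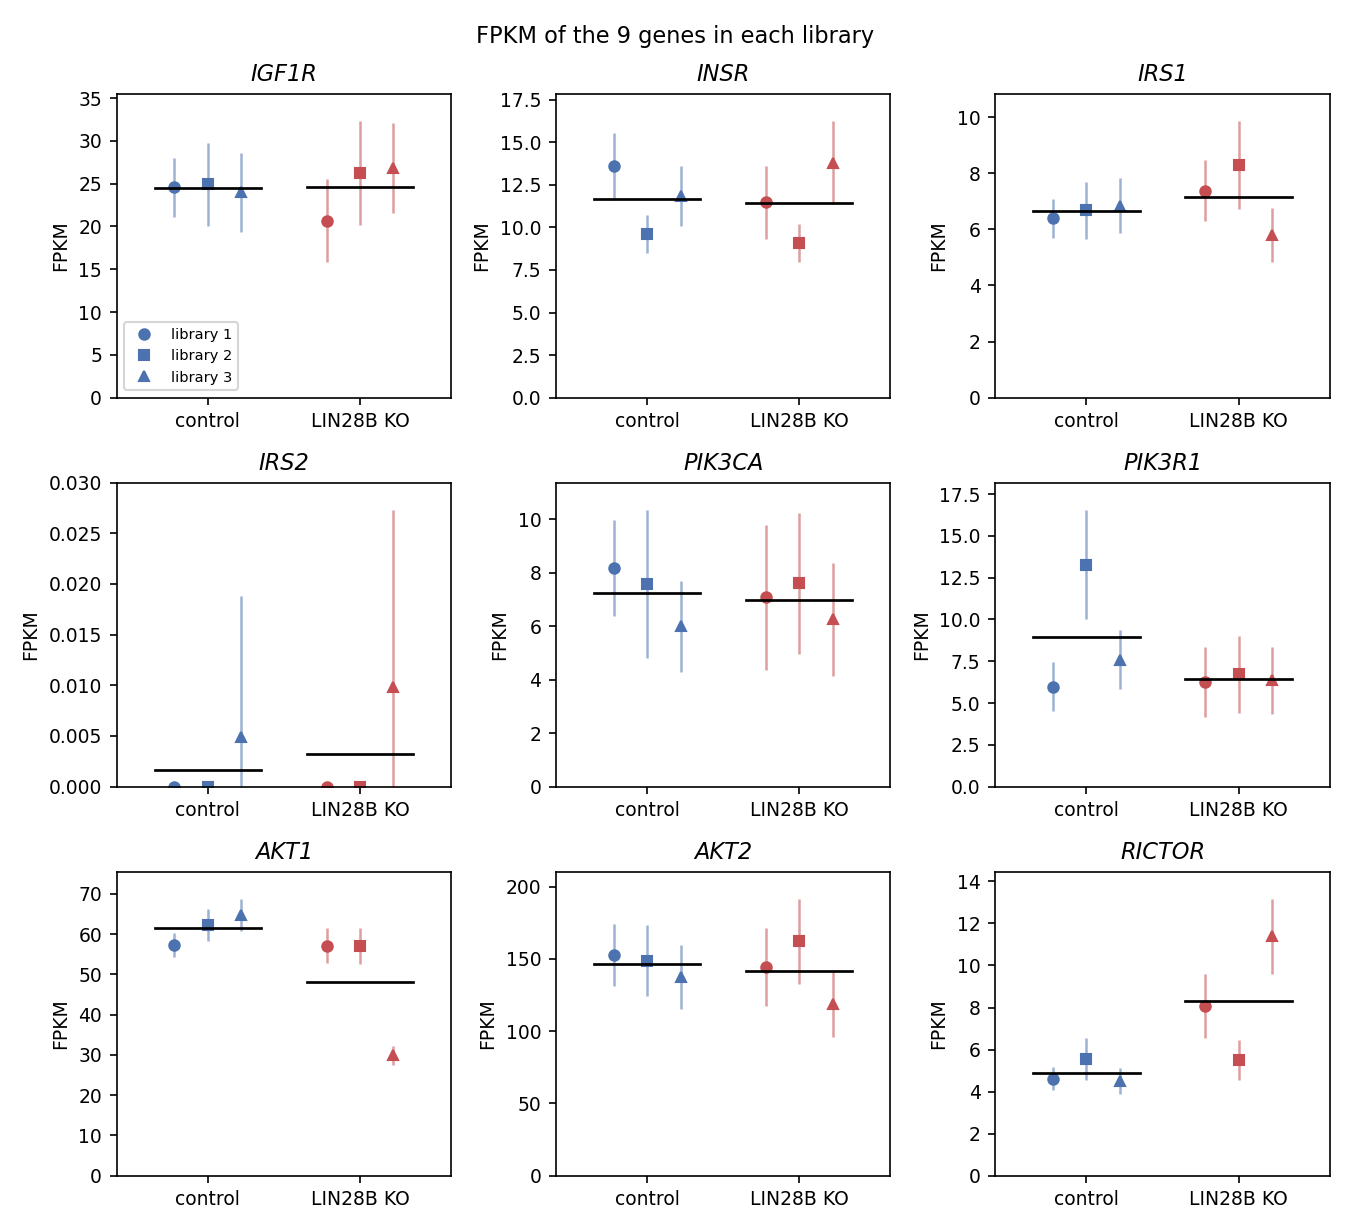
FPKM of each gene (vertical axes start at 0 and differ between panels) in the 3 control and 3 LIN28B KO libraries, with the deposited lower and upper bounds as bars and the group mean as a black line. The groups overlap for every gene but AKT1, where LIN28B KO library 1, at 57.1 FPKM, lies just below control library 1, at 57.3 FPKM. The lower LIN28B KO mean of AKT1 comes mainly from library 3 at 29.9 FPKM.

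IGF1R, the receptor for IGF1 and IGF2, lies at chromosome 15, 99192200 to 99507759 of GRCh37 (ENSG00000140443, whole gene as deposited). It was at 24.6, 24.9 and 24.0 FPKM across the controls, against 20.7, 26.3 and 26.8 FPKM across LIN28B KO libraries. The controls lay close together, and the LIN28B KO libraries fell on both sides of them. Control IGF1R averaged 24.5 ± 0.474 FPKM (SD, n = 3), and LIN28B KO averaged 24.6 ± 3.38 FPKM (SD, n = 3). The log2 fold change was 0.00 (SE 0.14), with a 95% interval of -0.34 to 0.33 and an adjusted p of 0.993 in limma. The 5-library fit gave -0.07 (95% interval -0.33 to 0.19). With 3 seed matches, IGF1R held more than any other of the 9 genes.

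INSR, the insulin receptor, lies at chromosome 19, 7112266 to 7294045 (ENSG00000171105). It was at 13.6, 9.63 and 11.8 FPKM across the controls, against 11.5, 9.08 and 13.8 FPKM across LIN28B KO libraries, so that the groups covered the same range. The log2 fold change was -0.03 (SE 0.20, 95% interval -0.50 to 0.43, limma adjusted p = 0.941) and -0.17 in the 5-library fit (95% interval -0.57 to 0.22). IGF1R exceeded INSR in all 6 libraries, by 1.81-fold to 2.89-fold. Controls had ratios of 1.81, 2.59 and 2.02 and LIN28B KO libraries of 1.81, 2.89 and 1.94, again with overlap. The deposited bounds lay 14.0% to 23.4% above and below the value for IGF1R and 11.6% to 18.9% for INSR, and bounds cover counting and assignment error within a library only.

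By a rule of likeness, the Pearson r over 6 libraries among 11434 protein-coding genes, BLOC1S5 (r = 0.985), PIP4K2A (r = 0.984) and TYRO3 (r = 0.975) followed IGF1R most closely. All 3 were lowest in LIN28B KO library 1, as IGF1R was, but they were chosen for following it, so this is no separate result. ZNF813 (r = 0.962), LNX2 (r = 0.958) and CATSPER2 (r = 0.942) followed INSR. These are descriptions over few libraries, which differ in depth.

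The adaptor IRS1 was expressed, and IRS2 was at or near 0. IRS1 (chromosome 2, 227596033 to 227664475, ENSG00000169047) was at 6.39, 6.67 and 6.85 FPKM across the controls, against 7.38, 8.30 and 5.79 FPKM across LIN28B KO libraries. LIN28B KO libraries 1 and 2 lay above all controls and library 3 below them. Its log2 fold change was 0.09 (SE 0.16, 95% interval -0.30 to 0.47, limma adjusted p = 0.803), and 0.22 in the 5-library fit (95% interval -0.04 to 0.48, adjusted p = 0.276). IRS2 (chromosome 13, 110406184 to 110438915, ENSG00000185950) was listed at 0 in 4 libraries, at 0.00489 FPKM in control library 3 and at 0.00981 FPKM in LIN28B KO library 3. The deposited upper bounds of those values were 0.0188 and 0.0273 FPKM. IRS2 was under the filter on low values, and a difference was not detectable at this depth. The related adaptor IRS4 was also at or near 0, with at most 0.0104 FPKM.

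PIK3CA, the p110 alpha catalytic subunit of PI3K, lies at chromosome 3, 178865902 to 178957881 (ENSG00000121879). It was at 8.17, 7.58 and 6.01 FPKM across the controls, against 7.09, 7.61 and 6.26 FPKM across LIN28B KO libraries, where every library lay inside the control range. The log2 fold change was -0.04 (SE 0.16, 95% interval -0.43 to 0.34, limma adjusted p = 0.906). The 5-library fit gave 0.03. Its bounds reached 22.1% to 38.2% of the value to either side, the widest of the 8. The locus overlaps KCNMB3, at 0.390 to 2.57 FPKM, and RP11-245C23.3, at 2.16 to 3.78 FPKM. Since no strand setting is given in the sources used here, shared reads cannot be separated.

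PIK3R1, the p85 alpha regulatory subunit that holds p110 stable and inhibited until it binds phosphorylated adaptors, lies at chromosome 5, 67511548 to 67597649 (ENSG00000145675). It was at 5.98, 13.3 and 7.60 FPKM across the controls, against 6.26, 6.72 and 6.36 FPKM across LIN28B KO libraries. Control library 2 was high, and the other 2 controls lay on either side of the LIN28B KO libraries. The log2 fold change was -0.37 (SE 0.27, limma adjusted p = 0.516), and -0.36 in the 5-library fit (95% interval -1.06 to 0.34). Without control library 2 it was -0.06 (adjusted p = 0.919). The bounds of control library 2 ran from 10.0 to 16.5 FPKM and did not reach those of the other 5 libraries, of which the highest upper bound was 9.36 FPKM. PIK3R1 over PIK3CA was 1.75 in that library and 0.732 to 1.26 in the others.

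AKT1, a serine/threonine kinase of growth and survival signalling, lies at chromosome 14, 105235686 to 105262088 (ENSG00000142208). It was at 57.3, 62.2 and 64.7 FPKM across the controls, against 57.1, 57.1 and 29.9 FPKM across LIN28B KO libraries. All LIN28B KO libraries lay below all controls, libraries 1 and 2 narrowly and library 3 at 48.6% of the control mean. AKT1 was the 1 gene of 8 whose groups did not overlap with LIN28B KO lower, against 20.1% of all tested genes, and an exact two-sided permutation test gave p = 0.1, the smallest that 3 against 3 allows. The log2 fold change was -0.41 (SE 0.26, 95% interval -1.01 to 0.19, limma adjusted p = 0.464). Without LIN28B KO library 3 it was -0.10 (95% interval -0.27 to 0.07, adjusted p = 0.454 in the 5-library fit). After cyclic loess over 6 libraries, library 3 still lay 0.51 below the control mean on the log2 scale, and libraries 1 and 2 lay within the control range at -0.04 each.

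AKT2, the isoform with the larger known part in insulin-driven glucose uptake, lies at chromosome 19, 40736224 to 40791443 (ENSG00000105221). It was at 153, 149 and 137 FPKM across the controls, against 145, 162 and 118 FPKM across LIN28B KO libraries. The groups overlapped, with LIN28B KO library 2 the highest and library 3 the lowest of the 6. Its log2 fold change was -0.06 (SE 0.15, 95% interval -0.42 to 0.30, limma adjusted p = 0.867). In the 5-library fit it was 0.07 (95% interval -0.11 to 0.24), and with cyclic loess over 6 libraries 0.19 (95% interval 0.02 to 0.36, unadjusted p = 0.0357, limma adjusted p = 0.242), so that its sign depended on the scaling and on library 3. The AKT2 to AKT1 ratio ran from 2.12 to 2.67 among controls, and LIN28B KO libraries had 2.53, 2.84 and, in library 3, 3.97. The level of AKT2 is less certain than that of AKT1, with bounds 14.2% to 19.0% of the value away against 5.16% to 7.82%. MIR641, a microRNA gene inside AKT2, was listed at 0 to 50.6 FPKM.

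RICTOR, the defining subunit of mTORC2, lies at chromosome 5, 38938021 to 39074510 (ENSG00000164327). It was at 4.62, 5.54 and 4.50 FPKM across the controls, against 8.08, 5.50 and 11.4 FPKM across LIN28B KO libraries. Libraries 1 and 3 lay above all controls, and library 2 lay just under control library 2. Control RICTOR averaged 4.89 ± 0.567 FPKM (SD, n = 3), and LIN28B KO averaged 8.32 ± 2.95 FPKM (SD, n = 3). The log2 fold change was 0.66 (SE 0.25, 95% interval 0.06 to 1.26, unadjusted p = 0.0346, limma adjusted p = 0.351), and the exact two-sided permutation test gave p = 0.2. The 5-library fit gave 0.42 (95% interval -0.02 to 0.85, adjusted p = 0.232), and without LIN28B KO library 2 it was 0.91 (adjusted p = 0.262). After cyclic loess over 6 libraries it was 0.75 (unadjusted p = 0.0543, limma adjusted p = 0.285). After cyclic loess the LIN28B KO libraries lay 0.67, 0.15 and 1.43 above the control mean on the log2 scale, against a highest control of 0.17. The overlapping gene OSMR was at most 0.580 FPKM.

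**Figure D3:**
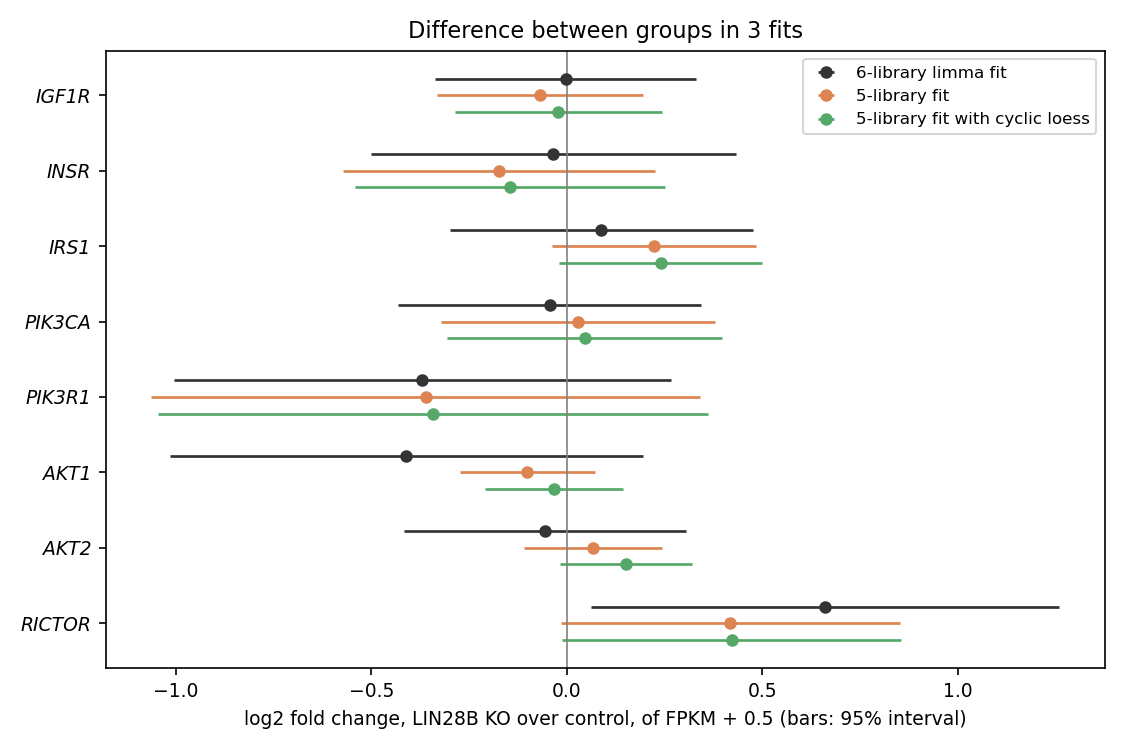
Log2 fold change of LIN28B KO over control with its 95% interval (limma) for the 8 tested genes, with 6 libraries, with 5 libraries, and with 5 libraries after cyclic loess. All intervals include 0 except that of RICTOR with 6 libraries, whose lower end is 0.06.

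FPKM is scaled to length, so levels can be set against each other. AKT2 exceeded AKT1, and AKT1 exceeded IGF1R, in all 6 libraries, with means over 6 libraries of 144 ± 15.0, 54.7 ± 12.6 and 24.5 ± 2.16 FPKM (SD over both groups). Their ranges did not overlap. INSR followed at 11.6 ± 1.95 FPKM, below PIK3R1 in control library 2 only. PIK3R1, PIK3CA, IRS1 and RICTOR, with means of 7.70, 7.12, 6.90 and 6.60 FPKM, overlapped and changed places between libraries. PIK3R1 exceeded PIK3CA in 3 of 6 libraries, and RICTOR held rank 5 of the 9 in LIN28B KO libraries 1 and 3 and rank 8 in the other 4. IRS2 was last throughout.

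The other genes of the pathway were read from 9 lists of 73 genes, of which 57 were tested with 6 libraries and 55 in the 5-library fit. With 6 libraries limma called none, while 3 higher and 5 lower had an unadjusted p under 0.05, close to the 13.7% of all genes. In the 5-library fit 1 was called higher, PIK3IP1, and 1 lower, CDKN1B, against 1.08% and 3.02% of all genes. The groups of 6 libraries did not overlap for 9 genes with LIN28B KO higher (15.8%, against 7.61% of all genes) and for 12 with LIN28B KO lower (21.1%, against 20.1%). The median log2 fold change was 0.04 in the 5-library fit, beside -0.04 for all genes.

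PIK3IP1, a membrane protein that binds and inhibits the p110 subunits of PI3K, was the gene called higher in the 5-library fit. It was at 10.8, 11.7 and 10.3 FPKM across the controls, against 19.1, 17.8 and 12.8 FPKM across LIN28B KO libraries. Every LIN28B KO library was above every control, with library 3 the nearest to them. It rose 1.66-fold in the 5-library fit (log2 fold change 0.73, SE 0.10, limma adjusted p = 0.0249) and kept the call with cyclic loess there (0.77, adjusted p = 0.0241). On all genes without LIN28B KO library 3, not the protein-coding ones alone, the fold was the same and the adjusted p was 0.0605, so the call was lost. With 6 libraries the log2 fold change was 0.56 (adjusted p = 0.302), and 0.71 after cyclic loess (adjusted p = 0.0433). Among the other 6 tested brakes on PI3K and AKT none was called. PHLPP1, a phosphatase that acts on AKT, had a log2 fold change of 0.23 (adjusted p = 0.324) and INPP4A, a lipid phosphatase, -0.11 (adjusted p = 0.345) in the 5-library fit.

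CDKN1B, a cell cycle inhibitor and FOXO target, was at 45.9, 45.4 and 47.9 FPKM across the controls, against 37.5, 36.1 and 24.8 FPKM across LIN28B KO libraries, all lower. It was 1.26-fold lower in the 5-library fit (log2 fold change -0.33, SE 0.07, limma adjusted p = 0.0473), and the call was lost with cyclic loess there (-0.27, adjusted p = 0.0879) and on all genes without LIN28B KO library 3 (adjusted p = 0.0787). The FOXO target TXNIP, which restrains glucose uptake, was named after its values were seen. Its identifier has no match among the GENCODE 29 protein-coding genes, so the 5-library fit left it out. It was at 136, 135 and 142 FPKM across the controls, against 202, 196 and 145 FPKM across LIN28B KO libraries, all higher, though library 3 only just. On all genes without LIN28B KO library 3 its log2 fold change was 0.53 (limma adjusted p = 0.0304). With 6 libraries it was 0.38 (adjusted p = 0.366), and 0.63 after cyclic loess (adjusted p = 0.00826). No single fit called both CDKN1B and TXNIP, but CDKN1B was called only in the 5-library fit, where TXNIP was not tested. SESN3, a stress-induced inhibitor of mTORC1, had a log2 fold change of 0.35 (adjusted p = 0.125) and GADD45A -0.18 (adjusted p = 0.167) in the 5-library fit.

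Among ligands, IGF1 was present at 6.75, 5.89 and 6.35 FPKM across the controls, against 7.19, 6.55 and 5.51 FPKM across LIN28B KO libraries, with overlap, while IGF2 had a mean of at most 0.0892 FPKM in either group and INS was listed at 0. IGFBP6 and IGFBP7, which bind IGFs or related ligands, had log2 fold changes of -0.42 and -0.13 in the 5-library fit (adjusted p = 0.351 and 0.688). Of the adaptors, GRB10, which inhibits both receptors, was at 0.503, 1.23 and 0.718 FPKM across the controls, against 2.02, 1.86 and 1.32 FPKM across LIN28B KO libraries. All LIN28B KO libraries were above all controls, at a low level (log2 fold change 0.93 in the 5-library fit, SE 0.26, limma adjusted p = 0.102). GAB1, a docking protein, ran from 23.2 to 26.4 FPKM among controls and read 40.1, 26.6 and 46.7 FPKM with LIN28B KO (0.39 in the 5-library fit, adjusted p = 0.229). As for RICTOR, library 3 was highest and library 2 nearest the controls. SH2B2, another receptor adaptor, had 0.33 (adjusted p = 0.262), with a mean of 28.3 FPKM in LIN28B KO libraries 1 and 2 and 13.6 FPKM in library 3, against 22.4 FPKM in control.

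Among the PI3K subunits, PIK3CG, the p110 gamma subunit of blood cells, was the most abundant of the catalytic ones read, at 88.1 FPKM or more in every control library and 94.3 ± 11.3 FPKM (SD, n = 3) with LIN28B KO, with overlap (0.09 in the 5-library fit, adjusted p = 0.524). PIK3CA and PIK3CB were far lower, the latter at 16.5 and 14.5 FPKM. The regulatory subunit PIK3R3 was at 4.63 to 5.37 FPKM in the controls and 6.34 to 6.92 FPKM in LIN28B KO, without overlap (log2 fold change 0.34 in the 5-library fit, adjusted p = 0.162). PIK3R2, another regulatory subunit, had 0.18 (adjusted p = 0.386). PDPK1, a kinase that activates AKT, had a log2 fold change of 0.41 (adjusted p = 0.136), and the AKT-related kinases SGK1 and SGK3 had 0.29 and 0.10 (adjusted p = 0.562 and 0.615).

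Of the tested partners of RICTOR in mTORC2, MAPKAP1, PRR5 and MLST8 were lower with LIN28B KO and MTOR overlapped. None passed the test. MAPKAP1 (SIN1) was at 47.6, 51.4 and 54.2 FPKM across the controls, against 44.6, 32.4 and 37.3 FPKM across LIN28B KO libraries, and PRR5 (Protor-1) at 7.55, 7.20 and 8.06 FPKM against 6.26, 5.34 and 5.26 FPKM. Both were lower in every LIN28B KO library than in every control. Their log2 fold changes were -0.42 (SE 0.14, adjusted p = 0.136) and -0.37 (SE 0.12, adjusted p = 0.136) in the 5-library fit, neither past the threshold. MLST8, shared by both mTOR complexes, was also lower in every LIN28B KO library than in every control, as were 20.1% of all tested genes. In the 5-library fit it had -0.23 (adjusted p = 0.234), and MTOR itself had 0.04 (adjusted p = 0.829). With 6 libraries MTOR had -0.13 (limma adjusted p = 0.720). DEPTOR, an inhibitor of both complexes, was at 0.362, 0.262 and 0.306 FPKM across the controls, against 0.565, 1.55 and 0.375 FPKM across LIN28B KO libraries. Its LIN28B KO values lay above all controls, library 3 only just, and library 2 was far above the other LIN28B KO libraries. PRR5L was at 0.505 to 0.901 FPKM in control and 0.653 to 1.73 FPKM in LIN28B KO, with overlap. Both were under the filter and were not tested, and were named after their values were seen. Downstream, EIF4EBP1, the translation repressor that mTORC1 phosphorylates, was at 60.6, 59.7 and 54.3 FPKM across the controls, against 43.4, 48.8 and 32.0 FPKM across LIN28B KO libraries, all lower (-0.33, adjusted p = 0.0790 in the 5-library fit). RPS6KB2, an S6 kinase, had -0.25 (adjusted p = 0.0949), and the transcription factor FOXO3 0.22 (adjusted p = 0.134). TSC1 and TSC2, which together hold back mTORC1, had -0.02 and 0.14 (adjusted p = 0.960 and 0.416), and their partner TBC1D7 had -0.21 (adjusted p = 0.294).

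**Figure D4:**
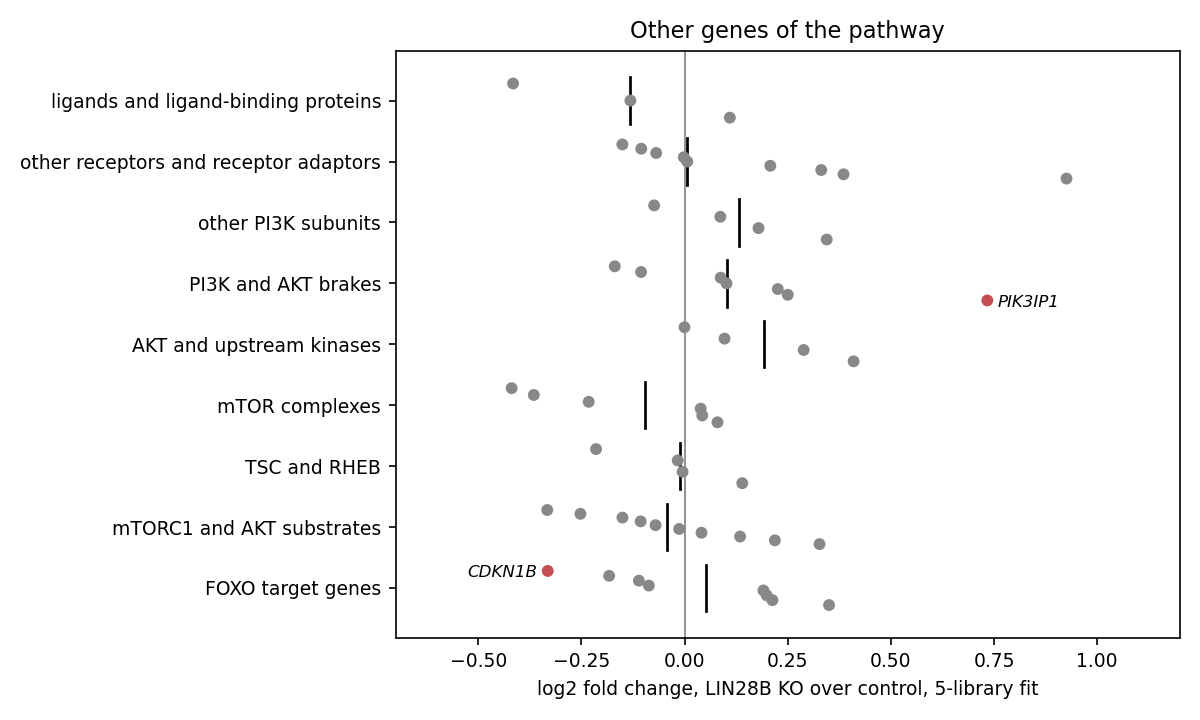
Log2 fold change of LIN28B KO over control in the 5-library fit for the 55 tested genes of 9 pathway lists (points), with each list's median (black line) and called genes in red. PIK3IP1 at 0.73 and CDKN1B at -0.33 are the 2 called genes.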

How the data were processed

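RNA sequencing of 3 control and 3 LIN28B KO libraries was used. The submitters' processing notes name cutadapt, TopHat2, HTSeq and GRCh37 without versions or roles. The authors deposited 1 FPKM value per gene and, per the file headers, its lower and upper confidence bounds, which were read as a signal on the same scale. Which program wrote them, and with what strand setting, is not given in the sources used here. The 222 rows of 108 genes listed more than once were summed, and 25 genes with a failed estimate were left out. Read numbers are not in the tables, and relative depth came from 1238 genes whose bounds gave whole fragments (within 0.01, up to 50).

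After a filter of 1 FPKM or more in 3 or more libraries, limma 3.58.1 (R 4.3.3) with a trended variance was run on log2(FPKM + 0.5), and p-values were adjusted over all genes. Alternatives were pseudocounts of 0.1 and 1, filters, quantile and cyclic loess scaling, no variance trend, a replicate block, each library left out, and a 5-library fit of protein-coding genes. Scripts were tested on simulated data. Members, lists and the 5-library fit were chosen with earlier results of these data known. Genes named were the 9, LIN28B, MALAT1 and ACTB, list genes past the threshold with 6 or 5 libraries, up to 3 per list by smallest p in the 5-library fit, and the 3 most alike to IGF1R and INSR; levels of other list genes were named after their values were seen. Sequences came from RefSeq and GENCODE 29 on GRCh38, and gene loci from the files on GRCh37.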

Additional observations from a re-analysis of the deposited data

How the results depend on the processing

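None of the 8 tested genes passed the threshold under any of the 16 alternatives (lowest adjusted p of 0.232, for RICTOR). RICTOR stayed higher (log2 fold change 0.42 to 0.91), and AKT1 (-0.56 to -0.03) and PIK3R1 (-0.60 to -0.06) lower. IGF1R turned to 0.13 with quantile and 0.17 with cyclic loess scaling, INSR to 0.061 and 0.11, AKT2 to 0.15 and 0.19, SH2B2 to 0.11 and 0.16 and PIK3CG to 0.16 and 0.22. With cyclic loess PIK3CA turned to 0.060, INPP4A to 0.011 and TSC1 to 0.012. In the 5-library fit, without and with cyclic loess, PIK3CA turned to 0.028 and 0.046, AKT2 to 0.067 and 0.15, SH2B2 to 0.33 and 0.38 and PIK3CG to 0.087 and 0.16, and TSC1 to 0.016 with it. With single libraries left out, IGF1R ran from -0.069 to 0.11, INSR from -0.17 to 0.12, IRS1 from -0.019 to 0.22, PIK3CA from -0.16 to 0.042, AKT2 from -0.16 to 0.067, IGF1 from -0.067 to 0.11, SH2B2 from -0.26 to 0.33, PIK3R2 from -0.030 to 0.18 and PIK3CG from -0.074 to 0.087. The cause of these turns was not tested.

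Over all genes, 10 were called higher and 5 lower with 6 libraries. The counts were 5 and 1 without a filter, 57 and 54 with cyclic loess, 122 and 341 in the 5-library fit and 122 and 132 with cyclic loess there. Lower genes numbered 3 with a mean filter, 13 with quantile scaling and 2 with the replicate block. With 1 library left out, 1 to 23 were higher and 0 to 41 lower. Of the wider pathway, quantile scaling called 1 higher, TXNIP, cyclic loess 2, TXNIP and PIK3IP1, and the 5-library fit 1 higher and 1 lower. With cyclic loess there 1 was higher, and with 1 library left out 0 to 1 were higher. Same-numbered libraries did not deviate together (r of -0.02, 0.04 and -0.03), so the replicate block, under which 11 genes were higher and 2 lower and RICTOR had an adjusted p of 0.438, pairs by number only. LIN28B kept its log2 fold change (-1.75 to -1.46 over all alternatives, -1.66 with 6 libraries) and lost its call without a filter (adjusted p = 0.142), with the block (0.0604) and without any 1 library other than LIN28B KO library 3 (up to 0.185). IRS2 was under the filter and was tested only without one (log2 fold change 0.0047, limma adjusted p = 0.965). There its values at or near 0 could not show a difference.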
